A study of Mus musculus with 12 samples.

Results

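Gabrp, Muc4, Oit1 and Lyz1 are 4 of the 55450 genes in the count table of this kidney cortex series. They were selected on the raw counts of the untreated mice: the 3 wild-type (WT) libraries held almost no counts of them, whereas the 3 Tg26 libraries did. Tg26 is a mouse line, kept here as hemizygotes on the FVB/N background, that carries part of the HIV-1 genome with its regulatory and accessory genes and develops a kidney disease resembling HIV-associated nephropathy. Bulk RNA-seq was done on outer kidney cortex from 12 mice killed at 12 weeks of age, with 3 mice in each of 4 groups, which were WT and Tg26 mice left untreated and mice of each genotype given C16. C16 inhibits PKR, a kinase that responds to double-stranded RNA, and was injected intraperitoneally at 10 µg/kg, 3 times a week, from week 6 to week 12, in 0.5% DMSO in saline at 10 ml/kg. WT and Tg26 mice without C16 are called untreated here, since a vehicle for them is not given in the sources used here. The groups were sex-matched, all mice were FVB/N, and every library held the mixed cells of the cortex.

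The proteins of these 4 genes are best known from epithelial surfaces outside the kidney. Gabrp encodes the pi subunit of the GABA-A receptor, a chloride channel opened by GABA, and is found mainly in epithelia outside the brain. Muc4 encodes a large mucin anchored in the apical membrane, which can bind the receptor tyrosine kinase ERBB2. Oit1 is the mouse counterpart of human FAM3D, a secreted cytokine-like protein of the gut. Lyz1 encodes the P lysozyme, an antibacterial enzyme of intestinal Paneth cells, and its neighbor Lyz2 encodes the M lysozyme of macrophages and other myeloid cells. In bulk tissue, a change in the number of cells of a type cannot be told apart from a change in RNA per cell, and no count below can be assigned to a cell type.

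All 4 genes were annotated as protein coding in the GRCm38 (mm10) gene set of GENCODE M21. Gabrp lies on chr11:33550781-33578959 (minus strand), Muc4 on chr16:32735886-32782391 (plus strand) and Oit1 on chr14:8348937-8378754 (minus strand). Lyz1 lies on chr10:117287797-117292868 (minus strand), beside Lyz2 at chr10:117277331-117282321 on the same strand. Muc4 overlaps Muc20 on the opposite strand, and Oit1 overlaps the antisense gene 2610318M16Rik, which held 5 counts over the 12 libraries. The library kit kept strand, but whether the counting used it is not given in the sources used here, so reads of an overlapping pair may have been shared.

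Lyz1 and Lyz2 are close copies, which bears on how their reads were divided. Their coding sequences, 447 bases each with the stop codon, were identical at 425 bases (95.1%). The 60-base stretch of coding sequence with the most differences is shown because it is where reads of the neighbors can best be told apart. It lies in exon 1, at coding bases 61 to 120, on the minus strand, and the capitals mark the 9 bases that differ (chr10:117292719-117292778 for Lyz1 and chr10:117282123-117282182 for Lyz2, GRCm38).
Lyz1: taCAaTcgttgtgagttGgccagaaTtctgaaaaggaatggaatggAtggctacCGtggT
Lyz2: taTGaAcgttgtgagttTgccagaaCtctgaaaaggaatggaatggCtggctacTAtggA
Of the 1164 windows of 100 bases in the Lyz1 transcript, 24 (2.06%) also occurred in a transcript of another gene, and that gene was Lyz2. No window of this length in a Gabrp, Muc4 or Oit1 transcript occurred in another gene.

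The sequences just before the start sites are shown because the 4 genes shared a pattern of counts, so a reader may compare what lies upstream. All 4 genes and Lyz2 matched the RefSeq promoter table by symbol (GRCm38.p6, from 250 bases before the start to 50 after it). In all, 5 motifs were searched on both strands: the STAT motif TTCNNNGAA, the AP-1 motif TGANTCA, the ETS core GGAAGT, the TATA box TATAAA and the NF-kB consensus. None of these motifs overlapped another in the sequences below, where capitals mark the matches and positions count back from the RefSeq start.
Gabrp, chr11:33578960-33579107, minus strand: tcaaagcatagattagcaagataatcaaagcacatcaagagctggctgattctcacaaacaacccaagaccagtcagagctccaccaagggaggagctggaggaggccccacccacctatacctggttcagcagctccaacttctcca
Muc4, chr16:32735736-32735883, plus strand: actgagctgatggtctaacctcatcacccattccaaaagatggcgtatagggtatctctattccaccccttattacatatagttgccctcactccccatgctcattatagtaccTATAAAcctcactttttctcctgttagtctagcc
Oit1, chr14:8378766-8378913, minus strand: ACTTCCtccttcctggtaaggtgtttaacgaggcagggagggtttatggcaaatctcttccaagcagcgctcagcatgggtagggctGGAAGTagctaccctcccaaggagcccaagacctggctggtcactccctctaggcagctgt
Lyz1, chr10:117292918-117292988, minus strand: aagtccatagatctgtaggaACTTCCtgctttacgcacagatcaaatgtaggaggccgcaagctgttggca
Lyz2, chr10:117282322-117282392, minus strand: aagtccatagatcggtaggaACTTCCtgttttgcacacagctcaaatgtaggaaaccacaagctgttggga
Muc4 held a TATA box from -36 to -31, as did 13.6% of 32851 promoters. Oit1 held the ETS core at -150 to -145 and at -63 to -58, and Lyz1 and Lyz2 both held it at -100 to -95; 23.8% of all promoters held this core at least once. The Lyz1 and Lyz2 stretches, which run from -120 to -50, were identical at 62 of 71 positions (87.3%). Gabrp held none of the 5 motifs, and the STAT, AP-1 and NF-kB motifs, held by 8.30%, 7.81% and 4.51% of all promoters, had no match in the 4 windows.

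The total count per library ranged from 19877877 to 27000388, so 3 counts correspond to between 0.102 and 0.146 CPM as the mean over a group. CPM is the number of counts per 1000000 counts of the library after scaling by TMM, edgeR's method for putting libraries on a common scale. The TMM factors ran from 0.901 to 1.22 and were above 1 in all 3 untreated Tg26 libraries and below 1 in all WT libraries. With library sizes alone, the median log2 fold change of all tested genes between Tg26 and WT moved from -0.014 to 0.29. This is small beside the genotype differences of the 4 genes, but not beside the smaller differences of other genes below. Calls of lower genes depended on the scaling: 10 genes of the lists below were called lower with TMM and 3 with library sizes alone. The labels give the replicates only a group and a number, and no pair of libraries in a group agreed within sampling noise.

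Gabrp had 0 counts in each of the 3 untreated WT libraries and 229, 158 and 124 counts in the untreated Tg26 libraries. The C16-treated WT libraries held 0, 2 and 1 counts, and the C16-treated Tg26 libraries held 17, 37 and 54. The lowest Tg26 library, with or without C16, therefore lay well above the highest WT library. The mean level was 5.70 CPM ± 1.29 (SD, n = 3) in untreated Tg26 mice and 1.41 CPM ± 0.663 (SD, n = 3) in C16-treated Tg26 mice. Against the floor of 3 counts per library, Gabrp was at least 41.9-fold higher in untreated Tg26 than in untreated WT mice, a difference that the choice of the gene fixed.

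Muc4 was read 1 time in the 3 untreated WT libraries, in replicate 3, and 1 time in the C16-treated WT libraries, in replicate 1. The untreated Tg26 libraries held 236, 113 and 88 counts, and the C16-treated Tg26 libraries held 24, 44 and 55. As for Gabrp, replicate 1 was the highest untreated Tg26 library and also the lowest C16-treated one, and the 2 groups did not overlap. The means were 4.81 CPM ± 2.19 (SD, n = 3) and 1.61 CPM ± 0.561 (SD, n = 3). The ratio of untreated Tg26 to untreated WT was 327, with an exact counting interval of 58.4 to 12960 that is wide because it rests on 1 WT count.

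Oit1 was the lowest of the 4 genes by count. It had 0 counts in each untreated WT library and 100, 66 and 32 counts in the untreated Tg26 libraries. The C16-treated WT libraries held 2, 0 and 1 counts and the C16-treated Tg26 libraries held 1, 8 and 18, so replicate 1 of the latter fell within the range of the WT libraries. The mean was 2.18 CPM ± 0.963 (SD, n = 3) in untreated Tg26 mice, at least 16.03-fold above the WT floor, and 0.346 CPM ± 0.313 (SD, n = 3) in C16-treated Tg26 mice.

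Lyz1 was the highest of the 4. It had 2, 2 and 0 counts in the untreated WT libraries and 216, 288 and 179 in the untreated Tg26 libraries. The C16-treated WT libraries held 4, 1 and 0 counts, and the C16-treated Tg26 libraries held 61, 109 and 212. Here the treated and untreated Tg26 libraries overlapped, since C16-treated replicate 3 (7.85 CPM) exceeded untreated replicates 1 (6.69 CPM) and 3 (6.59 CPM). The means were 7.73 CPM ± 1.88 (SD, n = 3) without C16 and 4.95 CPM ± 2.71 (SD, n = 3) with it. The untreated Tg26 to WT ratio was 128, with an exact counting interval of 49.7 to 471.

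**Figure D1:**
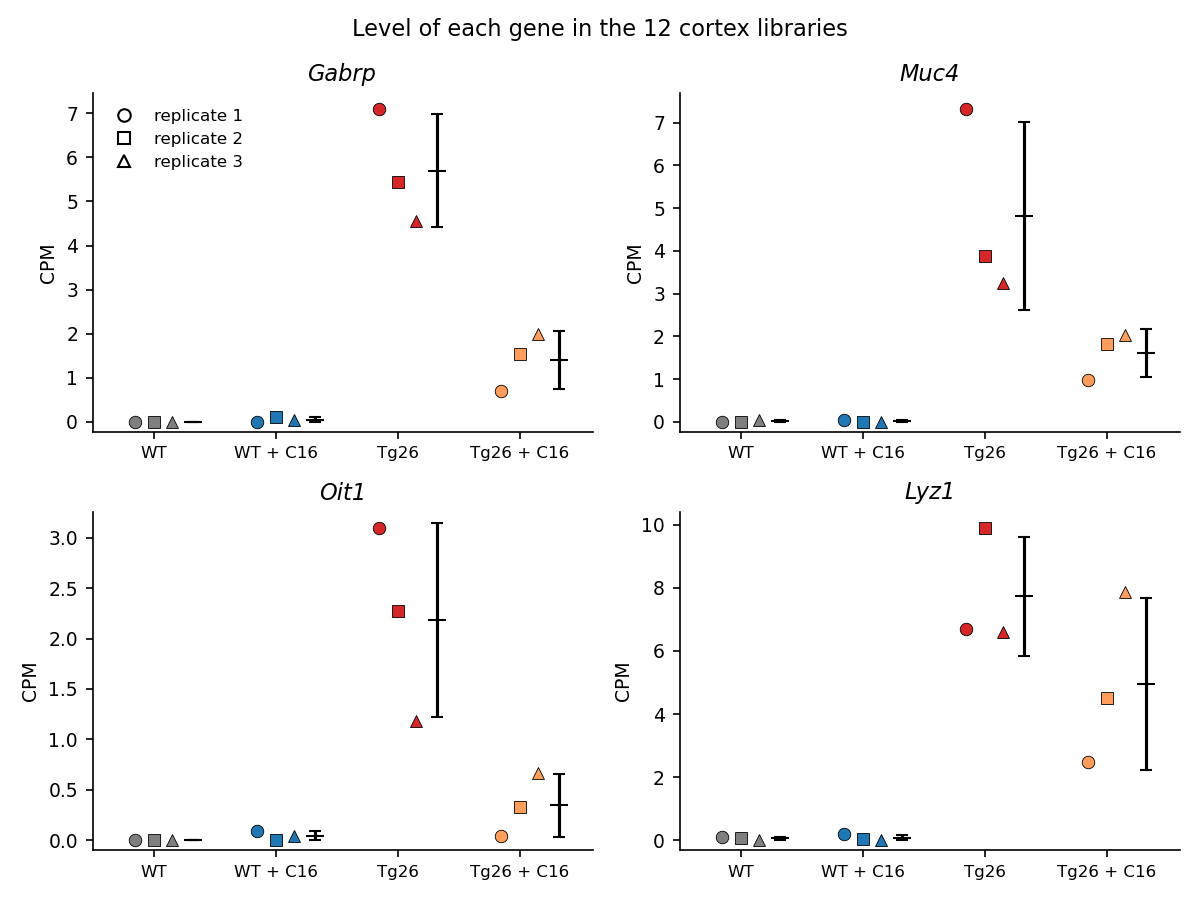
Level of Gabrp, Muc4, Oit1 and Lyz1 (y axes, CPM) in each library of the 4 groups (x axes); symbols mark the replicate numbers and the bars beside them the mean and SD (n = 3). The WT libraries sit at or near 0 in every panel, and the C16-treated Tg26 libraries lie below the untreated ones for all but Lyz1, where replicate 3 reaches 7.85 CPM.

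Divided by the length of the gene's exons, the order of mean levels in untreated Tg26 cortex was Lyz1 (6.12 CPM per kb ± 1.49), Gabrp (1.69 ± 0.381), Oit1 (1.39 ± 0.614) and Muc4 (0.409 ± 0.186; all SD, n = 3). Every untreated Tg26 library gave this same order, although the means of Gabrp and Oit1 were within their spread of each other. In C16-treated Tg26 cortex the order was the same, with levels of 3.92 CPM per kb ± 2.15 for Lyz1, 0.417 ± 0.196 for Gabrp, 0.221 ± 0.200 for Oit1 and 0.137 ± 0.0477 for Muc4 (SD, n = 3). There the ranges of Gabrp and Oit1 and of Oit1 and Muc4 overlapped. Gabrp still lay above Oit1 in each of these libraries, whereas Oit1 lay below Muc4 in replicate 1. Even Lyz1 was a minor transcript beside its neighbor, since Lyz2 stood at 332 CPM per kb ± 45.2 (SD, n = 3) in untreated Tg26 cortex.

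The comparison of C16-treated Tg26 with C16-treated WT mice asks whether the genotype difference was also found in 6 libraries that had no part in choosing the genes. Muc4 and Lyz1 were called higher in the C16-treated Tg26 mice by both fits below. Gabrp was called only by the fit of 12 libraries, and Oit1 had too few counts in these mice for a test. In edgeR's quasi-likelihood fit over the 12 libraries, with Benjamini-Hochberg adjustment over 16094 genes, 111 genes (0.690%) were called higher at an adjusted p below 0.05. That fit draws its filter and its estimate of spread from the untreated libraries too, so a fit of the 6 C16-treated libraries alone is also given. Gabrp, Muc4 and Lyz1 had counts enough for the 12-library fit in the untreated and in the C16-treated Tg26 libraries. Oit1 entered it only through the untreated Tg26 libraries that had chosen it.

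Lyz1 was 62.4-fold higher by the ratio of pooled counts, scaled by library size (exact counting interval 26.5 to 193). Its fitted log2 fold change was 5.85 ± 0.69 (SE), with an edgeR adjusted p of 0.0054. It kept an adjusted p below 0.05 under all 16 alternative settings, the highest being 0.048 without C16-treated WT replicate 2. Muc4 was 100-fold higher (17.7 to 3997), with a log2 fold change of 6.25 ± 0.81 (SE) and an edgeR adjusted p of 0.0076. Leaving out C16-treated WT replicate 1, 2 or 3 raised the adjusted p of Muc4 to 0.055, 0.053 and 0.051, and its call held under the other 13 of 16 settings.

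Gabrp was 29.4-fold higher (9.79 to 145), with a log2 fold change of 4.72 ± 0.69 (SE) and an edgeR adjusted p of 0.019. Every C16-treated Tg26 library exceeded every C16-treated WT library, but the call held under only 9 of 16 settings, whose adjusted p ran from 6.7e-05 to 0.101. The adjusted p rose to 0.101, 0.093 and 0.091 without C16-treated WT replicate 1, 2 or 3, to 0.073 and 0.080 without C16-treated Tg26 replicate 2 or 3, and to 0.054 in a fit of the 6 C16-treated libraries alone. In that smaller fit 0.369% of 15195 genes were called higher, Muc4 and Lyz1 among them with adjusted p of 0.033 and 0.034. Oit1 was 7.35-fold higher (2.26 to 37.8), with a fitted log2 fold change of 2.74 ± 1.07 (SE) that is given without a test. It had too few counts for the smaller fit and its C16-treated Tg26 and WT libraries overlapped, so a difference in Oit1 was not tested.

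The next question was how the levels in Tg26 mice compared with and without C16. The untreated libraries in this comparison chose the genes for being high, so the values are given without a test. By pooled counts scaled by library size, untreated Tg26 stood at 4.05 times C16-treated Tg26 for Gabrp (exact counting interval 3.29 to 5.03). The ratio was 3.04 for Muc4 (2.48 to 3.75), 6.28 for Oit1 (4.19 to 9.77) and 1.53 for Lyz1 (1.35 to 1.74). The fitted log2 differences, C16-treated minus untreated, were -2.01 ± 0.42 for Gabrp, -1.58 ± 0.42 for Muc4, -2.62 ± 0.70 for Oit1 and -0.64 ± 0.42 for Lyz1 (SE). Treated and untreated libraries did not overlap for the first 3 genes. The share of all tested genes without overlap is not given here, and the choice of the genes favors such a gap. It is therefore a description and no result about them. For Lyz1, the difference was -0.32 without C16-treated replicate 1 and -1.14 without C16-treated replicate 3. In WT mice the counts with C16 (0 to 4 per library) and without it (0 to 2) overlapped for every one of the 4 genes, and at this depth a difference was not detectable.

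The 6 Tg26 libraries could also be ordered by the level of each gene. Gabrp, Muc4 and Oit1 gave the same order, with untreated replicates 1, 2 and 3 followed by C16-treated replicates 3, 2 and 1, and this order was found for 398 (2.47%) of the 16094 tested genes. Lyz2, the intermediate filament gene Krt19 and the macrophage receptor gene Adgre1 were among these 398. Lyz1 gave another order, led by untreated replicate 2 and C16-treated replicate 3, which it shared with 3 other genes (0.0249% in all). Tubular injury genes were not all in the order of the first 3: Havcr1, which encodes KIM-1, had C16-treated replicates 2 and 3 above untreated replicate 2.

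**Figure D2:**
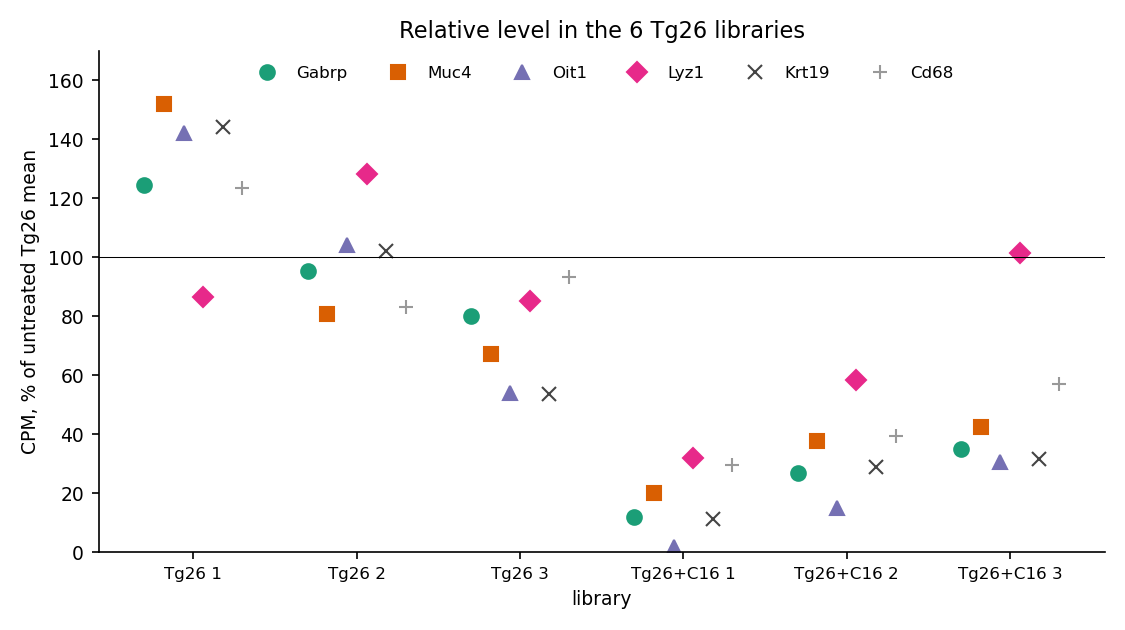
Level of the 4 genes and, for comparison, of Krt19 and Cd68 in each Tg26 library (x axis), as a percentage of each gene's mean CPM in the untreated Tg26 libraries (y axis); points at 1 library are spread sideways only to be seen. Gabrp, Muc4, Oit1, Krt19 and Cd68 are highest in untreated replicate 1 and lowest in C16-treated replicate 1, whereas Lyz1 is highest in untreated replicate 2.

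Genes whose log2 CPM followed each of the 4 across the 12 libraries were then listed. The Pearson r values below are descriptions over 12 libraries that fall apart by genotype, so they mostly carry the gap between Tg26 and WT. Beside them, r over the 6 Tg26 libraries is given, which in turn carries the gap between untreated and C16-treated mice. Gabrp was most like Krt19 (r = 0.992 over 12 libraries, 0.977 over 6), followed by Mpeg1, Cd68, Cyth4 and Cd300a, of which Mpeg1 and Cd68 mark macrophages. Muc4 was most like Vcam1, an adhesion molecule gene also expressed by injured tubules (r = 0.993 and 0.961), followed by Ms4a7, the complement gene C3 and Krt19. Oit1 was most like the tetraspanin gene Tspan8 (r = 0.983 and 0.974), followed by Plekho2, Tlr13, Ddr2 and Gpm6b. Lyz1 was most like Mmp12, the macrophage elastase (r = 0.990 and 0.886), followed by Lyz2, Clec4d, Trem2 and Gpnmb, genes best known in myeloid cells. Between 47 (Lyz1) and 168 (Muc4) tested genes reached r of 0.95 over the 12 libraries, so none of these partners stood alone. Among the 4 themselves, r over the 6 Tg26 libraries was 0.969 for Gabrp and Muc4, 0.986 for Gabrp and Oit1 and 0.965 for Muc4 and Oit1, and 0.720 to 0.874 for Lyz1 with each of the others. With group means taken out over the 12 libraries, r was lower for every pair. It was 0.397 for Gabrp and Muc4, 0.541 for Gabrp and Oit1 and 0.80 for Muc4 and Oit1. For Lyz1 it was 0.188 with Gabrp, 0.312 with Muc4 and 0.618 with Oit1.

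Lyz1 and Lyz2 were next compared library by library. Lyz2 had 320, 261 and 174 counts in untreated WT, 16131, 12420 and 10374 in untreated Tg26, 418, 227 and 345 in C16-treated WT and 3044, 5524 and 8614 in C16-treated Tg26 mice. Lyz2 was thus present in WT cortex, where Lyz1 was nearly absent. It rose in Tg26 against WT (log2 fold change 5.26 ± 0.36 SE, edgeR adjusted p = 3.4e-05) and also differed among the C16-treated mice (3.82 ± 0.34 SE, edgeR adjusted p = 0.00057).

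Lyz1 made up 0.527% of the Lyz1 and Lyz2 counts in untreated WT mice (4 of 759, exact binomial interval 0.144% to 1.34%). In untreated Tg26 mice its share was 1.72% (683 of 39608, 1.60% to 1.86%), with 1.32%, 2.27% and 1.70% in the single libraries. In C16-treated WT mice it was 0.503% (0.163% to 1.17%), and in C16-treated Tg26 mice 2.18% (1.96% to 2.40%). Every Tg26 library had a higher share than every WT library, although the intervals of single WT libraries reached up to 2.72%. These intervals cover counting error only, and the part that reads shared between the neighbors had in the Lyz1 counts was not tested.

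**Figure D3:**
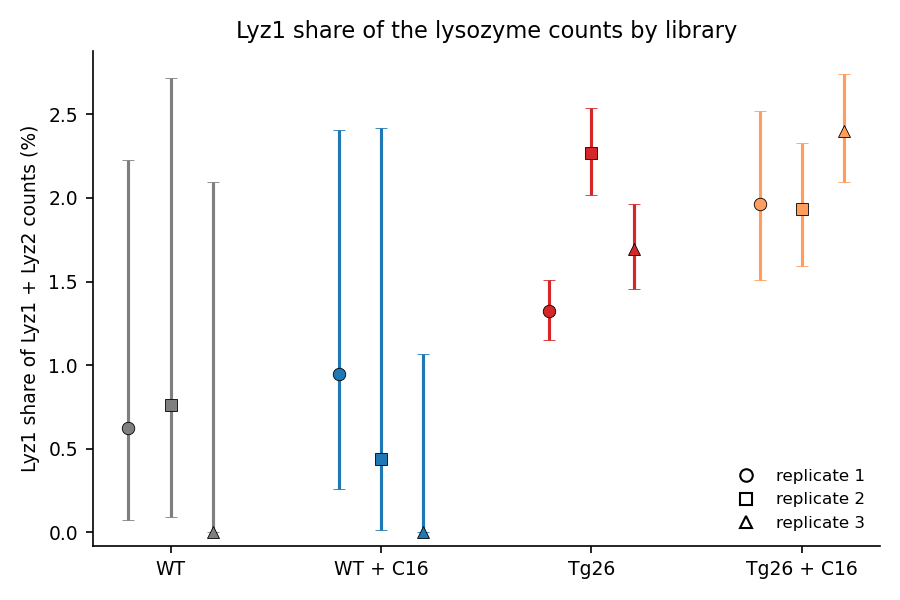
Share of Lyz1 in the summed Lyz1 and Lyz2 counts of each library (y axis, %), by group (x axis), with exact 95% binomial intervals; symbols mark the replicate numbers. The 6 Tg26 libraries lie between 1.32% and 2.40% and the 6 WT libraries between 0% and 0.948%.

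The 4 genes were not the only ones with this pattern. With at most 10 counts in each untreated WT library and at least 30 in each untreated Tg26 library, 94 genes were nearly silent in WT cortex, and by mean level in untreated Tg26 cortex Lyz1 ranked 9, Gabrp 14, Muc4 17 and Oit1 60. Of these 94 genes, 4 had no count in any untreated WT library: Gabrp, Oit1, the matrix protease gene Mmp7 and the interleukin-1 receptor antagonist gene Il1rn, the last pair named after their values were seen. Those with the highest levels in untreated Tg26 cortex included Gpnmb (43.1 CPM), Ltbp2 (36.2), Krt19 (21.2), Ankrd1 (11.0), Grem1 (10.6), Trem2 (8.78), Ccl2 (8.27), Lyz1 (7.73) and Mybpc2 (7.16). They include genes of macrophages (Gpnmb, Trem2), a monocyte chemokine (Ccl2), a matrix protein (Ltbp2), a BMP antagonist (Grem1) and an epithelial keratin (Krt19).

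In the fit of the 6 C16-treated libraries, 12 of the 94 were called higher in Tg26 mice, among them Muc4 and Lyz1, and 14 did not have enough counts to be fitted. A gene of this set could enter that fit only if it had counts in the C16-treated libraries, so the share called cannot be read against the 0.369% of all genes. Of the 94, 91 had a lower mean CPM with C16 than without it in Tg26 mice. Over the 90 genes other than the 4, mean CPM in untreated Tg26 stood at a median of 2.33 times the C16-treated level, with a range of 0.853 to 5.87. By the ratios of pooled counts above, a slightly different measure, Oit1, at 6.28, lay outside that range. Gabrp and Muc4 lay above the median and Lyz1, at 1.53, below it. These ratios carry the choice of genes that were high in untreated Tg26.

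**Figure D4:**
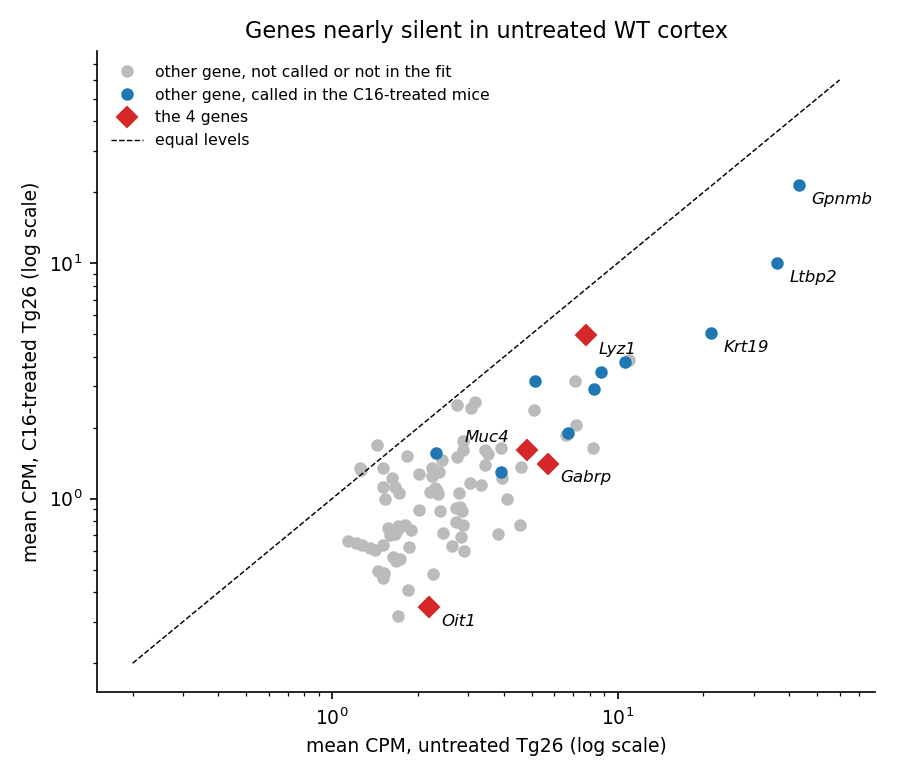
Mean CPM in untreated (x axis) and C16-treated (y axis) Tg26 mice, both on log scales, for the 94 genes nearly silent in untreated WT cortex; blue points were called higher in C16-treated Tg26 than C16-treated WT mice in the fit of those 6 libraries, and the dashed line marks equal levels. Of the 94 genes, 91 lie below the line, with Oit1 farther from it than Lyz1.

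The other members of each family were then read, leaving the 4 genes out of every count. In untreated Tg26 against WT, edgeR called 15.7% of the 16094 tested genes higher and 10.5% lower, and the median log2 fold change of all tested genes was -0.014. The other GABA-A receptor subunits did not share the pattern of Gabrp: 5 of 18 had counts enough to be tested and 1 rose, Gabre, which encodes the epsilon subunit, from 0.424 to 1.20 CPM (log2 fold change 1.49 ± 0.40 SE, edgeR adjusted p = 0.018). The median of the 5 was 0.07. Of the enzymes and transporters that make, move and break down GABA, 4 of 9 were tested and 2 fell, the mitochondrial enzymes Aldh5a1 (-0.66 ± 0.17 SE, edgeR adjusted p = 0.018) and Abat (-0.84 ± 0.28 SE, edgeR adjusted p = 0.045).

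Among 12 other mucins, 3 were tested and 2 rose. Muc1, a membrane mucin of the distal nephron, had 91, 87 and 91 counts in untreated WT and 664, 455 and 429 in untreated Tg26 libraries, and rose by 2.09 ± 0.19 (log2, SE; edgeR adjusted p = 0.00014). Unlike Muc4 it was well expressed in WT cortex, and it was lower with C16 in Tg26 mice (-1.29 ± 0.18 SE, edgeR adjusted p = 0.028). The latter call was lost without C16-treated Tg26 replicate 1 or replicate 2. Muc20, which overlaps Muc4, rose from 1.55 to 4.56 CPM (1.56 ± 0.30 SE, edgeR adjusted p = 0.0037) and was at 2.14 CPM in C16-treated Tg26 mice. In the WT libraries Muc20 had 21 to 49 counts and Muc4 had at most 1.

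Muc4 can bind ERBB2, so receptors and ligands of that family were read as well. Of 15, 11 were tested, 2 rose and 1 fell, with a median of 0.01. Areg, the ligand amphiregulin, had 0, 0 and 1 counts in untreated WT and 51, 15 and 39 in untreated Tg26 libraries (5.87 ± 1.07 SE, edgeR adjusted p = 0.0028). Tgfa rose by 0.70 ± 0.21 (SE, edgeR adjusted p = 0.029) and the receptor gene Egfr fell by 0.53 (SE 0.16, edgeR adjusted p = 0.029). Of the 3 other FAM3 genes, 2 were tested and Fam3c rose by 0.91 ± 0.21 (SE, edgeR adjusted p = 0.0087). Lyz2 was the one tested gene among 8 other lysozyme genes, and 6 of the 8 had no count in any library.

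A wider list of 31 mucosal secretory and defence genes held 18 that were tested, of which 10 rose and none fell in untreated Tg26 cortex, with a median of 1.11. The 3 with the smallest adjusted p were Wfdc2, a secreted protease inhibitor family member (1.24 ± 0.13 SE, edgeR adjusted p = 0.0002), the tight junction gene Cldn7 (1.63 ± 0.18 SE, edgeR adjusted p = 0.00025) and the membrane protease gene St14 (0.86 ± 0.11 SE, edgeR adjusted p = 0.0004). All were well expressed in WT cortex, at 47.9, 6.82 and 30.7 CPM. In C16-treated against untreated Tg26 mice 8 of the 18 fell, where 2.66% of all tested genes were called lower and 0.758% higher. That comparison leaned on single libraries: without C16-treated Tg26 replicate 1 or replicate 2, edgeR called 0 genes in either direction (1655 and 2041 lower at an unadjusted p under 0.05), and without untreated Tg26 replicate 1 it called 8 lower and 2 higher.

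The label of epithelial genes was read against markers of the cells the tissue could hold. Proximal tubule markers were abundant in all 12 libraries, and 6 of 10 fell in untreated Tg26 against WT, among them the endocytic receptor genes Cubn and Lrp2 and the phosphate transporter gene Slc34a1. Lrp2 was also the single proximal tubule gene called higher with C16 in Tg26 mice (0.88 ± 0.19 SE, edgeR adjusted p = 0.038). That call, like every other with C16 in Tg26 mice, was lost without C16-treated Tg26 replicate 1 or replicate 2. Tubular injury markers rose in this comparison, in which the 4 genes are high by choice: 16 of 16 were called higher, with a median of 3.30. The smallest adjusted p were those of Krt19 (6.26 ± 0.51 SE, edgeR adjusted p = 0.00011), Cd44 (4.77 ± 0.43) and Vim (2.46 ± 0.24). The summed level of the 16 ran from 619 to 734 CPM in untreated WT, 1911 to 5893 in untreated Tg26, 537 to 593 in C16-treated WT and 824 to 1559 in C16-treated Tg26 libraries.

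Macrophage markers moved as well: 14 of 14 rose in untreated Tg26 cortex, with a median of 2.89, and the smallest adjusted p were those of Lyz2, Cd68 and Mpeg1. Their summed level was 120 to 152 CPM in untreated WT and 832 to 1330 in untreated Tg26 libraries, and 148 to 193 and 330 to 682 in the C16-treated ones. Of 12 neutrophil markers, 7 were tested and Csf3r alone rose. The summed level of the 12 was at 5.202 to 8.57 CPM in untreated WT, 7.51 to 12.1 in untreated Tg26, 2.85 to 40.7 in C16-treated WT and 3.98 to 12.8 in C16-treated Tg26 libraries. The part of these cells in the counts of Gabrp, Muc4, Oit1 and Lyz1 was not tested.

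Most markers of the gut, where Oit1 and Lyz1 are best known, were at or near 0. Of 13 intestine and Paneth markers 9 had no count in any library, including the Paneth defensin genes Defa24 and Defa30 and the intestinal transcription factor gene Cdx2, and 1 was tested and not called. This was the galectin gene Lgals4, which was present in WT cortex at 8.54 CPM and stood at 7.33 CPM in untreated Tg26 cortex. The summed level of the 13 ran from 5.08 to 10.5 CPM in untreated WT and from 5.06 to 11.5 CPM in untreated Tg26 libraries. Exocrine gland markers gave 2 tested genes of 12, none of them called in untreated Tg26 against WT. Of 11 urothelium markers, 4 were tested and Upk3b rose (3.84 ± 0.46 SE, edgeR adjusted p = 0.00035), from 2, 1 and 3 counts in untreated WT to 57, 39 and 27 in untreated Tg26 libraries. The other uroplakins did not follow it, since Upk2 had at most 5 counts and Upk1b at most 14 in any library, the highest being WT libraries. Upk3b was at 5, 4 and 6 counts in C16-treated Tg26 mice, close to the 3, 4 and 3 of C16-treated WT mice. The part of urothelium in the counts of the 4 genes was not tested.

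Markers of other nephron segments showed fewer calls. Calb1 fell among 7 thick ascending limb and distal tubule genes (-0.68 ± 0.18 SE, edgeR adjusted p = 0.016), and Scnn1b rose among 12 collecting duct genes (0.37 ± 0.08 SE, edgeR adjusted p = 0.0084). Of 5 inner medulla genes, 4 were tested and Crip1 rose (1.52 ± 0.22 SE, edgeR adjusted p = 0.00091). Since the libraries hold no cell labels, the 4 genes are described here by their near absence from WT cortex rather than as genes of one epithelium.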

How the data were processed

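RNA of outer kidney cortex was sequenced as paired reads from stranded mRNA libraries. Per the study's methods and the submitters' processing notes, the authors removed adapters with Cutadapt (1.18), mapped reads on mm10 by STAR (2.7.0f) and estimated counts of Ensembl 96 genes by RSEM (1.3.1). The deposited values are RSEM expected counts, not normalized; rounding to whole numbers changed 0 of them. The authors compared groups with DESeq2.

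Genes passing edgeR's filterByExpr (a count of about 10 in 3 libraries and 15 in total) were tested, 16094 of 55450. Counts were scaled by TMM and fitted over the 4 groups with the quasi-likelihood test of edgeR (4.0.16, R 4.3.3); adjusted p are Benjamini-Hochberg values and a call is one below 0.05. The fits were tested on simulated data. The 4 genes were not tested in comparisons with an untreated group, since those libraries chose them, and no test of Oit1 is given. Fold changes against groups at 0 used a floor of 3 counts per library. Ratios with a counting interval used the counts pooled over a group's libraries, divided by their pooled TMM-scaled sizes. Exact intervals are 95% and cover counting error, not the spread between mice. CPM per kb used the summed length of a gene's GENCODE exons, and log2 CPM for correlations used a prior count of 2.

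Named genes were the 4, in each list the 3 other called genes with the smallest adjusted p in Tg26 against WT and any called the opposite way, the 5 genes with the highest Pearson r per gene, and the 10 highest nearly silent genes. The genes and lists were chosen with earlier results of these data known. Alternatives were DESeq2 (1.42.0), limma-voom (3.58.1) with quality weights, RLE or upper-quartile factors, library sizes only, no filter, a stricter filter of 1 CPM, a replicate block, a covariate of Y-linked genes, the 6 C16-treated libraries alone leaving out each library and, for Lyz1, adding the Lyz2 counts. Replicate numbers are shared between the groups, but the labels do not say that they pair mice. Single-nucleus libraries were not used here. Some genes that the naming rule gave are not reported here.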

Additional observations from a re-analysis of the deposited data

How the results depend on the processing

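No result changed direction under any alternative run. Among the C16-treated mice, 111 genes were called higher and 1 lower by edgeR; the counts were 369 and 10 with DESeq2, 337 and 12 with limma-voom, 270 and 4 with no filter, 200 higher with the Y-linked covariate and 56 higher with the 6 libraries alone. Leaving out 1 library at a time gave 11 to 224 higher and 0 to 4 lower, the log2 fold change of Gabrp ranged from 4.15 to 5.64 and that of Muc4 from 5.77 to 8.32. Gabrp alone lost its call in the fit of 6 libraries (log2 fold change 4.70). Oit1 could not be fitted with the 6 libraries. A fit with the Lyz2 counts added to those of Lyz1 says nothing of Lyz1, since Lyz1 is 2.18% of that sum in C16-treated Tg26 mice.

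With the replicate number as a block, 40 genes were called higher and 0 lower among the C16-treated mice, Gabrp was at a log2 fold change of 4.69 (edgeR adjusted p = 0.078), and 0 genes were called higher or lower by edgeR with C16 in Tg26 mice (1759 and 2273 at an unadjusted p under 0.05). Deviations of same-numbered libraries correlated from -0.23 to 0.21 over these comparisons, so the numbers were not taken to pair mice. The block changed the call of neither Muc4 nor Lyz1.

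For Tg26 against WT, untreated, library sizes only gave 5267 genes higher and 274 lower, with 3 genes of the lists lower in place of 10. Leaving out a library gave 1681 to 2767 higher, 671 to 2065 lower and 2 to 11 genes of the lists lower, the lowest counts of lower calls coming without WT replicate 2. With C16 in Tg26 mice, the 122 higher and 428 lower calls became 699 and 1218 with DESeq2, 81 and 739 with library sizes only, and 0 to 642 and 0 to 827 on leaving out a library. The 94 nearly silent genes became 29 with at most 5 WT counts, of which 6 were called higher in place of 12, 285 with at most 20 WT counts and 183 with at least 20 Tg26 counts.

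Depth limits the WT side: Gabrp, Muc4, Oit1 and Lyz1 rest on 0 to 5 counts per WT group. The size of each genotype ratio is known no better than its counting interval, which leaves out the spread between mice. For Gabrp and Oit1 in untreated mice there is no interval, only a lower bound set by the floor.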
